A study of Mus musculus with 16 samples.

Results

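The genes described here encode cytochrome P450 enzymes of the families that oxidise drugs, other foreign compounds, steroids and fatty acids, together with Por, the flavoprotein that supplies their electrons. Members were the protein-coding genes of P450 families 1, 2, 3, 4, 17, 26 and 39, without Cyp4a10, Cyp4a14, Cyp2b9, Cyp2b13, Cyp4a12a and Cyp4a12b. There were 81 such genes, of which 55 (54 P450 genes and Por) reached at least 1 FPKM (fragments per length of transcript and per size of library) in at least 2 libraries, among 11790 genes of the whole series that did so. The study isolated hepatocytes, with cycloheximide present to hold ribosomes on their messages, from FVB mice fed a DDC diet for 4 weeks or fed chow. Polyadenylated RNA was sequenced from 4 pools of each diet: cytoplasm, monosomes (1 ribosome), light polysomes (2 to 4 ribosomes) and heavy polysomes (labelled as more than 5). Each of the 8 groups of diet and pool had 2 libraries, 16 in all. The labels name no transgene and give neither sex nor age. Nor do they state whether libraries stem from separate animals, so p-values measure the spread between these samples.

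Cytochrome P450 enzymes hold a heme group, sit mostly in the membrane of the endoplasmic reticulum and insert an oxygen atom into their substrate with electrons passed on by Por. Liver parenchymal cells make more of them than any other cell of the body, and many are switched on by foreign compounds through the receptors Ahr, Nr1i3 (CAR) and Nr1i2 (PXR), while others depend on sex through the pattern of growth hormone release. DDC (diethoxycarbonyl-dihydrocollidine) is itself a P450 substrate: its oxidation alkylates the heme of the enzyme, which destroys that enzyme molecule and yields a porphyrin that inhibits ferrochelatase.

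Promoter windows are shown for 6 members on which the results below turn: Cyp2c55 and Cyp4f16, higher in all 4 pools of DDC, Cyp2e1 and Cyp4a32, lower in all 4, and the chromosome 19 paralogs Cyp2c67 and Cyp2c69, whose levels split the chow libraries in opposite directions. The windows are RefSeq sequence of GRCm38.p6, 300 bases each, from 250 bases before to 50 bases after RefSeq's gene start, which need not equal the GENCODE start printed with each gene, and lie at chr19:39006769-39007068 (plus strand), chr17:32536307-32536606 (plus), chr7:140763569-140763868 (plus), chr4:115600688-115600987 (plus), chr19:39648993-39649292 (minus) and chr19:39886720-39887019 (minus). Capitals mark every match, on either strand, to 6 motifs that were searched for after the values were known. The core bound by Ahr with Arnt was written as GCGTG. The STAT5 site was taken as TTCNNNGAA and the C/EBP site as the letters TTGCNNAA. Part of the site of HNF4 was searched as CAAAGTCC, and the TATA box was searched by its letters TATAAA. The palindromic HNF1 site was the last. The matches did not overlap each other in these windows.
Cyp2c55: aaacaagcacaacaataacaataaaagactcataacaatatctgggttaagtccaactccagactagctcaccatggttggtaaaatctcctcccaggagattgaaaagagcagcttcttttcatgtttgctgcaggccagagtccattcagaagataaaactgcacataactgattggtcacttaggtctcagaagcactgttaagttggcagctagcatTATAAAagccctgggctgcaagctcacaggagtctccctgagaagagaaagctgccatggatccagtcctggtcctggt
Cyp4f16: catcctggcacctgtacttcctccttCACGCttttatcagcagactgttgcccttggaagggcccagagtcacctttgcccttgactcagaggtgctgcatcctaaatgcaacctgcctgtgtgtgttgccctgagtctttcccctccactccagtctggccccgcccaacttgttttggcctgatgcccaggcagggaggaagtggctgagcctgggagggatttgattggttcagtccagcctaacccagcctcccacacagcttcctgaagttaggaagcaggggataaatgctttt
Cyp2e1: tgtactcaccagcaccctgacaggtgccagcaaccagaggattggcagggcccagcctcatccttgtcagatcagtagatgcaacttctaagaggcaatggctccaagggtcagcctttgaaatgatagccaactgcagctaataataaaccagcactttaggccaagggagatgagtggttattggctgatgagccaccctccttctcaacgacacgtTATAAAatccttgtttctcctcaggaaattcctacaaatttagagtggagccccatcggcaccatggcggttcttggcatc
Cyp4a32: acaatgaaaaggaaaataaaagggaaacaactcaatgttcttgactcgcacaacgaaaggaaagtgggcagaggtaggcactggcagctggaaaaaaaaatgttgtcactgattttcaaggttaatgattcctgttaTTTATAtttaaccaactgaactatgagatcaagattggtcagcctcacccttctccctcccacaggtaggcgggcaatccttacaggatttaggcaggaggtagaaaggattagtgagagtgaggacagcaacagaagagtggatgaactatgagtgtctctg
Cyp2c67: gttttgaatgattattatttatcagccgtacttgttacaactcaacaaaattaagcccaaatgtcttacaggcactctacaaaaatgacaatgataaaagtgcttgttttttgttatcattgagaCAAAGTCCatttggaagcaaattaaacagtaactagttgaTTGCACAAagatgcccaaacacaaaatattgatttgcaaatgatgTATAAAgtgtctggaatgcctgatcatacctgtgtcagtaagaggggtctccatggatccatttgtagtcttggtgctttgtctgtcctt
Cyp2c69: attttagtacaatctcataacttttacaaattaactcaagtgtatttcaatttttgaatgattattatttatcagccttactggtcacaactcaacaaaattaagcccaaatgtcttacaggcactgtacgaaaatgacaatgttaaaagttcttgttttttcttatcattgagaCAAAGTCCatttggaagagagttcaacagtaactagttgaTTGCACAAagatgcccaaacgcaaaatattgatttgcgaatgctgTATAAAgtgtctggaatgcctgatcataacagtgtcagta

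TATAAA stood in the windows of Cyp2c55, Cyp2e1, Cyp2c67 and Cyp2c69, and in that of Cyp4a32 on the other strand. The Cyp4f16 window held GCGTG on the other strand and no TATAAA. Cyp2c67 and Cyp2c69 shared CAAAGTCC, TTGCNNAA and TATAAA in the same order, and their windows were 92.8% identical over 250 aligned bases. Windows were found for 68 of the 81 members and 45 of the 55 tested ones. Of those 45, 26 (57.8%) held TATAAA, against 13.6% of all 32851 windows of the table, and 11 (24.4%) held CAAAGTCC, against 1.42%. GCGTG was in 9 of the 45 against 32.4% of all windows, TTGCNNAA in 10 against 10.8%, TTCNNNGAA in 2 against 8.30%, and the HNF1 site in 0 against 0.00913%. Paralogs share sequence by descent, so these counts are not counts of independent windows. A match describes letters, not a bound site.

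Several features of the libraries touch what follows. The deposited values are FPKM already scaled between libraries, so depth cannot be read from them. The summed FPKM of a library ran from 375145 to 1092668 in DDC and from 446705 to 1386166 in chow. The 81 members took 0.829% to 2.41% of it in DDC and 1.18% to 2.98% in chow. Chow replicate 1 in all 4 pools (preparations named CH1 and CH1_CH2) stood apart. The 4 Y-linked genes Ddx3y, Eif2s3y, Kdm5d and Uty were listed at 0 in these 4 libraries, which held Xist at 0.0394 to 2.44 FPKM. In the other 12 libraries Xist was listed at 0 and Eif2s3y was at 4.20 to 34.5 FPKM. Results are therefore also given without the 4 libraries of chow preparation 1. Of 10 listed hepatocyte markers, 9 had values: Asgr1, Cps1, Hnf4a and Tat were present in every library, but Apoa1, Apoa2, Ahsg, Serpina1c and Ttr were listed at 0 in both libraries of 1 or more groups while exceeding 100 FPKM elsewhere. No P450 member showed that pattern of a group at 0 beside 100 FPKM or more elsewhere.

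Markers of other cells moved with the diet. Their summed level was 641 to 5917 FPKM in DDC and 80.8 to 469 FPKM in chow for 10 macrophage markers. For 8 ductal markers it was 182 to 568 FPKM in DDC and 17.8 to 127 FPKM in chow, and for 8 stellate markers 81.8 to 201 FPKM in DDC and 8.003 to 20.8 FPKM in chow. Macrophage markers were called higher in DDC for 8, 10, 9 and 10 of 10 tested in cytoplasm, monosomes, light and heavy polysomes. Stellate markers were called for 7 of 8 in each pool and ductal markers for 3 to 5 of the 5 or 6 tested. Among ductal and stellate markers, Cldn7, Epcam and Timp1 were listed at 0 in all chow libraries, whereas the macrophage markers C1qa, Cd68 and Lyz2 were present in both diets. Krt19 and Krt7 were listed at 0 in the chow libraries of all 3 ribosome fractions. Endothelial markers were called for 0 to 2 of 6, with sums of 19.8 to 70.6 FPKM in DDC and 18.2 to 41.9 FPKM in chow. Red cell markers were called for 0 of 4, with sums of 6.74 to 140.2 FPKM in DDC and 1.85 to 70.1 FPKM in chow. The hepatocyte markers summed to 17520 to 95104 FPKM in DDC and 21068 to 58390 FPKM in chow. These sums take markers listed at 0 in whole groups as 0, so they do not compare hepatocyte content between the diets. Of the 4 to 7 hepatocyte markers tested in a pool, 0 were called higher in DDC and 1 to 2 lower. The part of these cells in the P450 results was not tested. In bulk RNA, fewer hepatocytes and less message per hepatocyte cannot be told apart.

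The first question was how the diet altered the level of these messages in each pool. With DDC, 6 members fell in all 4 pools (Cyp2c50, Cyp2c54, Cyp2e1, Cyp2j5, Cyp3a13 and Cyp4a32) and 2 rose in all 4 (Cyp2c55 and Cyp4f16), where 3.79% of 11741 genes fell and 6.81% rose in all 4. Without chow preparation 1, which leaves 1 chow library a pool, the calls of Cyp2c50 and Cyp3a13 were lost in every pool. Both genes stayed lower in DDC in all 4. A further 19 members were called in 1 to 3 pools and 28 in none. The shares of all genes called in 1 to 3 pools or in none were not computed. Calls are from limma on log2(FPKM + 1) with the Benjamini-Hochberg adjustment at 0.05 over all genes tested, and changes are DDC minus chow on that log2 scale, which understates changes of genes with low values. In cytoplasm 3 of 55 members rose and 13 fell, against 12.7% higher and 9.68% lower (22.4% in either direction) among all 11760 genes tested there. On monosomes 7 rose and 8 fell (all genes 21% and 15.9%, 37% in either direction). On light polysomes 3 rose and 14 fell (16.6% and 13.5%, 30.1% in either). On heavy polysomes 3 rose and 17 fell (13.9% and 10.9%, 24.8% in either). The median change of the 55 members was -0.87 in cytoplasm, -0.16 on monosomes, -0.58 on light and -0.88 on heavy polysomes, where the median of all genes was 0.01 to 0.04. Without chow preparation 1 the member medians were -0.53, 0.23, -0.52 and -0.51. The filter of 1 FPKM in 2 libraries was met only through DDC by 3 members (Cyp1a1, Cyp2c55 and Cyp4a31) and only through chow by 8 (Cyp2c40, Cyp2c69, Cyp2j9, Cyp3a16, Cyp3a41a, Cyp3a41b, Cyp3a44 and Cyp4a32), which favours a difference in that direction. For the other 44 the medians were -0.66, 0.37, -0.52 and -0.84 with all libraries, so the sign on monosomes depends on the members and libraries used. With every library scaled to the same summed FPKM the all-gene medians shifted to 0.17, 0.25, 0.23 and 0.28 and the member medians to -0.81, 0.31, -0.42 and -0.34. Members called higher and lower were then 5 and 11 in cytoplasm, 10 and 6 on monosomes, 4 and 11 on light and 4 and 11 on heavy polysomes. The shares of all genes called under this scaling were not computed, and the shares given above do not apply to it. Cyp1a1, Cyp2c55, Cyp3a41a, Cyp3a41b and Cyp4a31 entered these medians with the 0 at which they were listed in whole groups.

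The counts moved with single libraries. The 13 falls in cytoplasm became 8 without DDC replicate 1, 6 without DDC replicate 2 and 8 without chow replicate 1. The 7 rises on monosomes became 4 without DDC replicate 1, and the 8 falls there became 5 without chow replicate 2. On light polysomes the 14 falls became 9 without DDC replicate 1, 8 without DDC replicate 2 and 9 without chow replicate 2. On heavy polysomes the 17 falls became 9 without DDC replicate 2 and 8 without chow replicate 2. Fitted on the 4 libraries of the pool alone, 3 of the 20 heavy polysome calls and 9 of the 15 monosome calls were kept. Without the 4 libraries of chow preparation 1, 4 members were called higher and 7 lower in cytoplasm, 9 and 8 on monosomes, 6 and 11 on light polysomes and 7 and 11 on heavy polysomes, where 8.25%, 27.2%, 15.4% and 15.5% of all genes were called in either direction. Of the 68 diet calls over the 4 pools, 31 were kept whichever library of the compared groups was left out, and 25 of these were kept without chow preparation 1 as well. The 25 were those of Cyp2c55, Cyp4f16, Cyp2e1 and Cyp4a32 in all 4 pools, Cyp2c54 on monosomes, light and heavy polysomes, Cyp2j9 in cytoplasm and on monosomes, Cyp2a12 and Cyp2b10 on monosomes, Cyp2j5 on light polysomes and Cyp4f14 on heavy polysomes. Of these members, Cyp2c55 met the filter only through DDC, and Cyp4a32 and Cyp2j9 only through chow, which favours a difference in that direction. How many diet calls of all genes were kept in these ways was not computed. The kept calls of the members therefore cannot be set against the whole series. No diet call was kept without chow preparation 1 for Cyp1a1, Cyp2c23, Cyp2c50, Cyp2c70, Cyp2d10, Cyp2d22, Cyp2d26, Cyp3a13, Cyp3a25, Cyp3a59, Cyp4b1 and Cyp4f13.

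**Figure D1:**
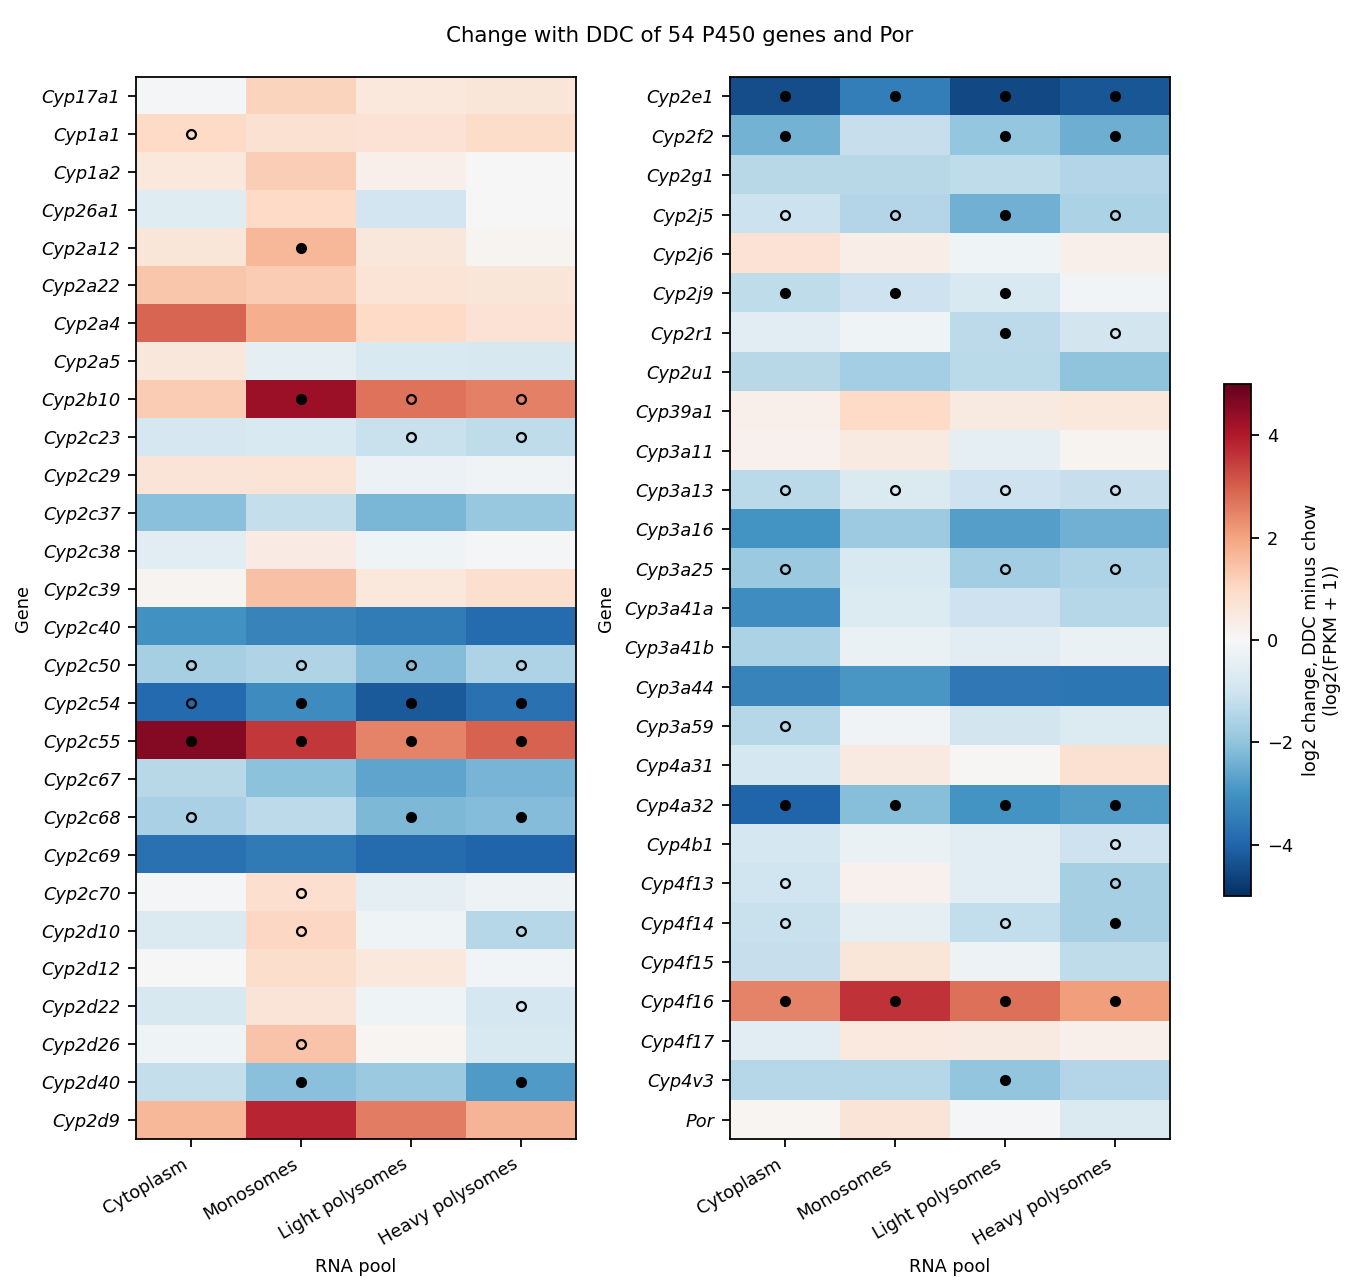
Heat map of the log2 change, DDC minus chow (log2(FPKM + 1), colour scale), of 54 P450 genes and Por (rows) in 4 RNA pools (columns). A filled dot marks a call by limma with all 16 libraries that is kept without chow preparation 1, and an open dot a call with all 16 libraries only. The rows of Cyp2c55 and Cyp4f16 are red, and those of Cyp2e1 and Cyp4a32 blue, with filled dots in all 4 columns.

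Among the members that rose, Cyp2c55 (chromosome 19, 39007019 to 39042693, GRCm38), an arachidonic acid hydroxylase known to be inducible by foreign compounds, had the largest rise in cytoplasm. In DDC, Cyp2c55 was at 41.4 and 24.6 FPKM in cytoplasm, 7.75 and 14.3 on monosomes, 4.47 and 11.5 on light polysomes and 4.89 and 8.96 on heavy polysomes. In chow, Cyp2c55 was at 0.244 and 0.490 FPKM in cytoplasm, 0 in both libraries on monosomes, 0.352 and 0.597 on light polysomes and 0 in both libraries on heavy polysomes. Every DDC library lay above every chow library of the same pool, and the DDC level in cytoplasm was above that in the polysome fractions. Cyp2c55 rose by 4.60 (SE 0.41; limma, Benjamini-Hochberg adjusted p = 2.54e-05) in cytoplasm and by 2.49 (adjusted p = 0.000949) on light polysomes. On monosomes and heavy polysomes it was called higher as well (adjusted p = 9.8e-05 and 0.000374), with no fold given because the chow libraries were listed at 0. It met the filter only through DDC.

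Cyp4f16 (chromosome 17, 32536558 to 32551798) belongs to the Cyp4f subfamily of enzymes that hydroxylate the end of fatty acid and leukotriene chains. Cyp4f16 in DDC was at 8.70 and 6.81 FPKM in cytoplasm, 13.7 and 16.6 on monosomes, 10.2 and 14.5 on light polysomes and 28.4 and 18.1 on heavy polysomes. Cyp4f16 in chow was at 0.700 and 0.440 FPKM in cytoplasm, 0.733 and 0 on monosomes, 1.12 and 0.764 on light polysomes and 4.70 and 4.43 on heavy polysomes. The diets did not overlap in any pool, and in both diets the level was highest on heavy polysomes. Its log2 change was 2.48, 3.61, 2.77 and 2.09 in cytoplasm, monosomes, light and heavy polysomes (limma adjusted p = 0.000234, 1.65e-05, 8.2e-05 and 0.000541).

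Cyp2b10 (chromosome 7, 25897620 to 25926624) is the classical phenobarbital-inducible target of Nr1i3. DDC libraries held Cyp2b10 at 106 and 85.5 FPKM in cytoplasm, 668 and 185 on monosomes, 291 and 163 on light polysomes and 776 and 220.2 on heavy polysomes. Chow libraries held Cyp2b10 at 44.8 and 33.4 FPKM in cytoplasm, 21.04 and 14.0 on monosomes, 42.0 and 25.3 on light polysomes and 79.5 and 63.6 on heavy polysomes. The diets did not overlap in any pool, and DDC replicate 1 was the highest library in each. Cyp2b10 rose on monosomes by 4.28 (SE 0.62; limma adjusted p = 0.00036), on light polysomes by 2.70 (adjusted p = 0.00662) and on heavy polysomes by 2.52 (adjusted p = 0.0113). In cytoplasm the change of 1.28 was not called (adjusted p = 0.168). The light polysome call was lost without DDC light polysome replicate 1 (2.29) or chow light polysome replicate 2 (2.35), and the heavy polysome call without DDC heavy polysome replicate 1 (1.62) or chow heavy polysome replicate 2 (2.37). Both were also lost without chow preparation 1, at 3.06 and 2.68.

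Cyp1a1 and Cyp1a2 oxidise polycyclic aromatic hydrocarbons and aromatic amines and are the best known targets of Ahr. Cyp1a1 was scarce: in DDC it was at 1.15 and 1.39 FPKM in cytoplasm, 0.524 and 0.937 on monosomes, 0.260 and 1.401 on light polysomes and 0.341 and 1.64 on heavy polysomes. Cyp1a1 in chow was at 0.106 and 0.150 FPKM in cytoplasm, 0 in both libraries on monosomes, 0.0324 and 0.0629 on light polysomes and 0 in both libraries on heavy polysomes. Each DDC library was above each chow library of its pool, but no DDC library exceeded 1.64 FPKM. It met the filter only through DDC. The cytoplasmic change of 1.004 was called (limma adjusted p = 0.0438) and was lost without DDC cytoplasm replicate 1 (1.08), DDC cytoplasm replicate 2 (0.93), chow cytoplasm replicate 1 (0.98) or chow cytoplasm replicate 2 (1.03) and without chow preparation 1 (0.98). Cyp1a2, far more abundant, was at 438 and 263 FPKM in cytoplasm, 310.2 and 261 on monosomes, 222 and 219 on light polysomes and 447 and 437 on heavy polysomes in DDC. The chow libraries held Cyp1a2 at 156 and 359 FPKM in cytoplasm, 76.0 and 193 on monosomes, 125 and 270.1 on light polysomes and 279 and 706 on heavy polysomes. The diets overlapped in cytoplasm, on light and on heavy polysomes, with chow replicate 1 below chow replicate 2 in every pool, and Cyp1a2 was called in no pool.

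**Figure D2:**
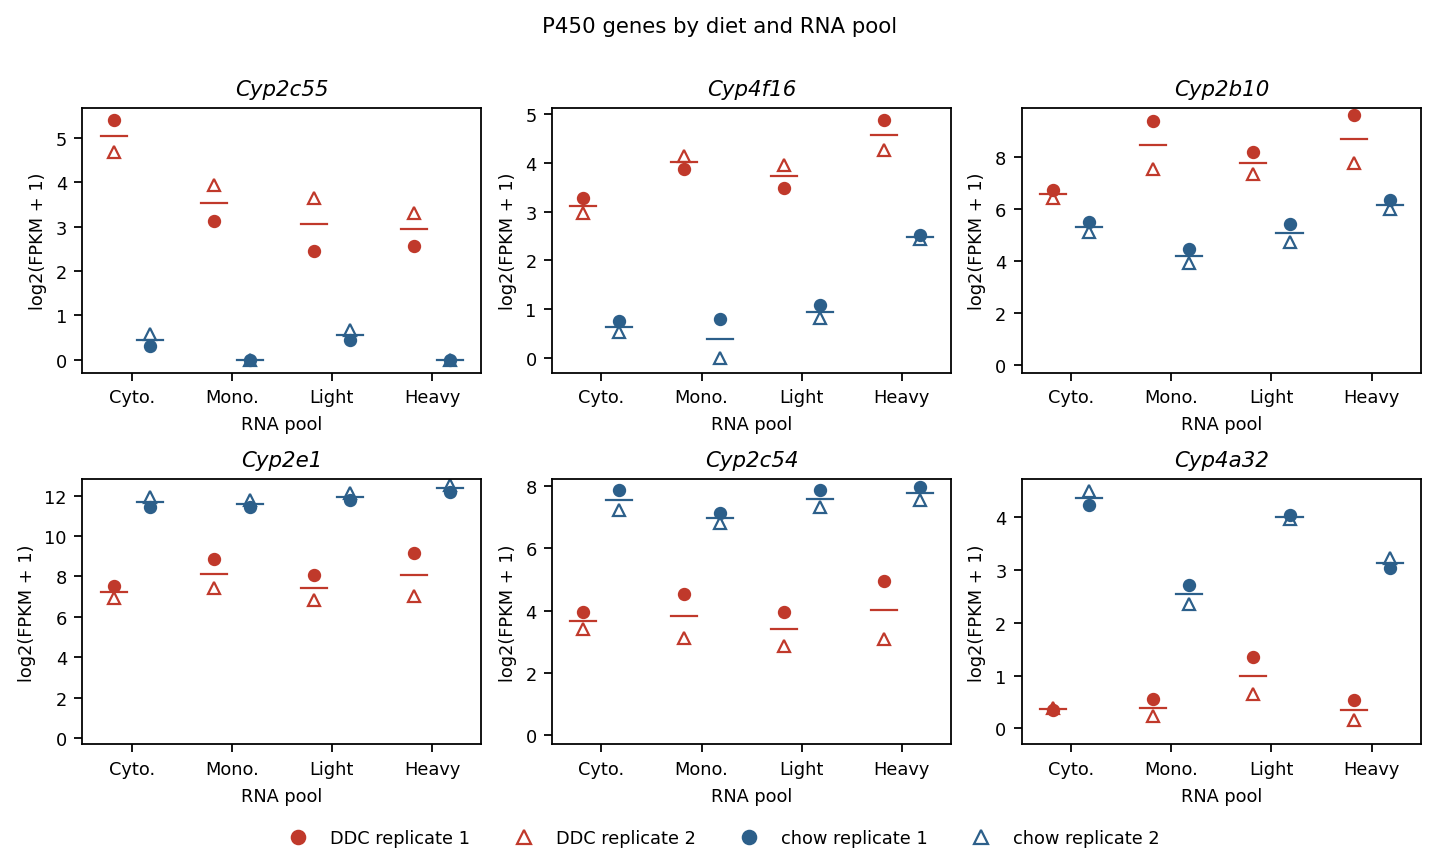
Level of 6 members in each library, log2(FPKM + 1), by RNA pool, with DDC libraries in red left of chow libraries in blue, replicate 1 as a filled circle and replicate 2 as an open triangle, and short lines at the group means. Cyp2c55, Cyp4f16 and Cyp2b10 stand higher in DDC and Cyp2e1, Cyp2c54 and Cyp4a32 higher in chow, with no overlap between the diets in any of the 4 pools.

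Cyp2e1 (chromosome 7, 140763739 to 140774987), which oxidises ethanol and acetaminophen and is made around the central vein, fell furthest among the members called in cytoplasm and on heavy polysomes. In DDC, Cyp2e1 was at 185 and 122 FPKM in cytoplasm, 464 and 172 on monosomes, 266 and 113 on light polysomes and 569 and 129 on heavy polysomes. In chow, Cyp2e1 was at 2735 and 3850.0 FPKM in cytoplasm, 2789.9 and 3516 on monosomes, 3559 and 4438 on light polysomes and 4728 and 5885 on heavy polysomes. The lowest chow library was above the highest DDC library in each pool, and DDC replicate 1 exceeded DDC replicate 2 in each. The log2 change was -4.42 (SE 0.64; limma adjusted p = 0.000638) in cytoplasm, -3.47 on monosomes, -4.51 on light and -4.27 on heavy polysomes (adjusted p = 0.00157, 0.000374 and 0.000596). By mean FPKM, which is per length, Cyp2e1 ranked 11 to 12 among the 55 members in the DDC groups and 1 in every chow group. It made up 1.78% of the summed member FPKM in DDC cytoplasm and 25.7% in chow cytoplasm. In DDC cytoplasm Cyp3a11 took the top rank with 27.6%.

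Cyp4a32 (chromosome 4, 115600969 to 115621602) is a member of the Cyp4a subfamily, whose enzymes hydroxylate fatty acids at the chain end and are targets of Ppara. DDC libraries held Cyp4a32 at 0.281 and 0.315 FPKM in cytoplasm, 0.465 and 0.176 on monosomes, 1.54 and 0.567 on light polysomes and 0.459 and 0.116 on heavy polysomes. Chow libraries held Cyp4a32 at 17.9 and 21.7 FPKM in cytoplasm, 5.59 and 4.14 on monosomes, 15.5 and 14.6 on light polysomes and 7.18 and 8.41 on heavy polysomes. The diets did not overlap, and Cyp4a32 met the filter only through chow. Its log2 change was -3.99, -2.15, -3.01 and -2.78 in cytoplasm, monosomes, light and heavy polysomes (limma adjusted p = 3.75e-06, 0.000145, 2.2e-05 and 2.6e-05). Its closest paralog among the tested members, Cyp4a31, was 96.0% identical in transcript sequence, so reads could be shared between the pair. Cyp4a10, Cyp4a14, Cyp4a12a and Cyp4a12b, which are not members, were not compared. Cyp4a31 itself was scarce, at 0.168 and 0.343 FPKM in cytoplasm, 0.394 and 0.307 on monosomes, 0.210 and 0.450 on light polysomes and 1.25 and 1.20 on heavy polysomes in DDC. In chow, Cyp4a31 was at 3.91 and 0.0664 FPKM in cytoplasm, 0 in both libraries on monosomes, 0.578 and 0 on light polysomes and 0.713 and 0 on heavy polysomes. DDC libraries of Cyp4a31 were above the chow libraries on monosomes and heavy polysomes. It was called in no pool with all libraries, and was called higher on heavy polysomes without chow preparation 1, with no fold given because the remaining chow library was listed at 0.

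The Cyp2c subfamily has 13 tested members, all on chromosome 19, many of them arachidonic and linoleic acid epoxygenases. Called higher and lower were 1 and 3 in cytoplasm, 2 and 2 on monosomes, 1 and 4 on light and 1 and 4 on heavy polysomes, and the subfamily median change was -1.38, -1.20, -2.18 and -1.55. Cyp2c54 (chromosome 19, 40037940 to 40073827) was at 14.3 and 9.66 FPKM in cytoplasm, 22.2 and 7.72 on monosomes, 14.5 and 6.29 on light polysomes and 30.2 and 7.43 on heavy polysomes in DDC. In chow, Cyp2c54 was at 231 and 149 FPKM in cytoplasm, 139 and 111 on monosomes, 236 and 158 on light polysomes and 249 and 189 on heavy polysomes. No DDC library reached the chow levels. Cyp2c54 changed by -3.87, -3.13, -4.19 and -3.75 in cytoplasm, monosomes, light and heavy polysomes (limma adjusted p = 0.00105, 0.00201, 0.000414 and 0.000966). Against chow preparation 2 alone the cytoplasmic change was -3.55 and its adjusted p 0.0535.

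Cyp2c50 (chromosome 19, 40089688 to 40113950), the next tested Cyp2c gene after Cyp2c54 along the chromosome, was at 108 and 73.7 FPKM in cytoplasm, 146 and 75.9 on monosomes, 119 and 52.5 on light polysomes and 168 and 58.6 on heavy polysomes in DDC. In chow, Cyp2c50 was at 357 and 230.0 FPKM in cytoplasm, 340.4 and 268 on monosomes, 447 and 292 on light polysomes and 337 and 252 on heavy polysomes. All chow libraries of Cyp2c50 lay above the DDC libraries of their pool. Its log2 changes of -1.67, -1.51, -2.18 and -1.55 were called in each pool (limma adjusted p = 0.0388, 0.0394, 0.0083 and 0.0492), but each was lost without chow preparation 1 (-1.35, -1.34, -1.87 and -1.34). Leaving out 1 library also ended them: in cytoplasm DDC cytoplasm replicate 1 (-1.94), DDC cytoplasm replicate 2 (-1.40), chow cytoplasm replicate 1 (-1.35) or chow cytoplasm replicate 2 (-1.99), on monosomes DDC monosome replicate 2 (-1.05), chow monosome replicate 1 (-1.34) or chow monosome replicate 2 (-1.69), on light polysomes DDC light polysome replicate 2 (-1.60) or chow light polysome replicate 1 (-1.87) and on heavy polysomes DDC heavy polysome replicate 2 (-0.79), chow heavy polysome replicate 1 (-1.34) or chow heavy polysome replicate 2 (-1.75). Cyp2c50 was 95.8% identical in transcript sequence to Cyp2c37.

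Cyp2c29, the most abundant Cyp2c message, did not pass the test in any pool. DDC libraries held Cyp2c29 at 1328 and 953 FPKM in cytoplasm, 788 and 1214 on monosomes, 591 and 751 on light polysomes and 976 and 862 on heavy polysomes. Chow libraries held Cyp2c29 at 574 and 923 FPKM in cytoplasm, 425 and 885 on monosomes, 588 and 1151 on light polysomes and 629.8 and 1663 on heavy polysomes. The diets overlapped except in cytoplasm. Cyp2c70, which makes the muricholic acids of mouse bile, was at 423 and 381 FPKM in cytoplasm, 380.2 and 479 on monosomes, 273 and 467 on light polysomes and 633 and 537 on heavy polysomes in DDC. In chow, Cyp2c70 was at 477 and 385 FPKM in cytoplasm, 214 and 271 on monosomes, 457 and 539.8 on light polysomes and 608 and 793 on heavy polysomes. DDC libraries were the higher pair on monosomes, and the diets overlapped elsewhere. The monosome rise of 0.82 was called (limma adjusted p = 0.0384) and lost without DDC monosome replicate 1 (0.99), DDC monosome replicate 2 (0.66), chow monosome replicate 1 (0.65) or chow monosome replicate 2 (0.99) and without chow preparation 1 (0.65). Of the other Cyp2c members, Cyp2c68 was called lower in cytoplasm, on light and on heavy polysomes (-1.62, -2.24 and -2.17) and Cyp2c23 on light and heavy polysomes (-1.12 and -1.27). With chow preparation 1 left out, both calls of Cyp2c23 (-1.21 and -1.45) and the cytoplasmic call of Cyp2c68 (-0.95) were lost. With 1 library left out, the Cyp2c68 calls were lost in cytoplasm without DDC cytoplasm replicate 1 (-1.87), DDC cytoplasm replicate 2 (-1.36) or chow cytoplasm replicate 1 (-0.95), on light polysomes without chow light polysome replicate 1 (-1.67) and on heavy polysomes without chow heavy polysome replicate 1 (-1.61). Those of Cyp2c23 were lost on light polysomes without DDC light polysome replicate 1 (-1.14), DDC light polysome replicate 2 (-1.10), chow light polysome replicate 1 (-1.21) or chow light polysome replicate 2 (-1.03) and on heavy polysomes without DDC heavy polysome replicate 2 (-0.84) or chow heavy polysome replicate 2 (-1.09).

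The Cyp2a subfamily includes Cyp2a5, the coumarin and nicotine hydroxylase, and Cyp2a4, a steroid hydroxylase 98.3% identical to it in transcript sequence. In DDC, Cyp2a5 was at 2068 and 328 FPKM in cytoplasm, 2683 and 321 on monosomes, 1015 and 419 on light polysomes and 1919.9 and 414 on heavy polysomes. In chow, Cyp2a5 was at 302 and 998 FPKM in cytoplasm, 1016 and 1612 on monosomes, 874 and 1387 on light polysomes and 1231 and 1960.1 on heavy polysomes. DDC replicate 1 was above both chow libraries and DDC replicate 2 near or below the lower of them in cytoplasm and on monosomes, and Cyp2a5 was called in no pool. Cyp2a12 (chromosome 7, 27029081 to 27037375), a steroid hydroxylase, was at 863 and 698 FPKM in cytoplasm, 675 and 482 on monosomes, 361 and 432 on light polysomes and 859 and 715 on heavy polysomes in DDC. In chow, Cyp2a12 was at 467 and 557 FPKM in cytoplasm, 194 and 165 on monosomes, 284 and 250.2 on light polysomes and 738 and 695 on heavy polysomes. DDC libraries were above chow libraries in cytoplasm, on monosomes and on light polysomes and overlapped them on heavy polysomes, but only the monosome rise of 1.67 was called (SE 0.24; limma adjusted p = 0.000315). It was 1.78 (adjusted p = 0.0161) without chow preparation 1. Cyp2a12 was 96.5% identical to Cyp2a22.

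The Cyp2d subfamily, the mouse relatives of the human debrisoquine hydroxylase, had 6 tested members on chromosome 15. Of these 0 were called in cytoplasm and on light polysomes, 2 higher and 1 lower on monosomes, and 0 higher and 3 lower on heavy polysomes. Cyp2d26 (chromosome 15, 82790101 to 82794294), the most abundant, was at 379 and 309 FPKM in cytoplasm, 1476 and 823 on monosomes, 883 and 656 on light polysomes and 2062 and 845 on heavy polysomes in DDC. In chow, Cyp2d26 was at 400.5 and 386 FPKM in cytoplasm, 447 and 373 on monosomes, 789 and 642 on light polysomes and 2749 and 1840.4 on heavy polysomes. DDC libraries were the higher pair on monosomes and the lower pair in cytoplasm, and the diets overlapped on light and heavy polysomes. Cyp2d26 rose on monosomes by 1.43 (limma adjusted p = 0.0158), and the call was lost without DDC monosome replicate 1 (1.01) or chow monosome replicate 2 (1.30) and without chow preparation 1 (1.56).

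Cyp2d10 (chromosome 15, 82402846 to 82407195) was the 1 member called in opposite directions in 2 pools. In DDC, Cyp2d10 was at 217 and 135 FPKM in cytoplasm, 693 and 430.3 on monosomes, 414 and 351 on light polysomes and 897 and 508 on heavy polysomes. In chow, Cyp2d10 was at 237 and 341 FPKM in cytoplasm, 230.5 and 305 on monosomes, 391 and 495 on light polysomes and 1782 and 1813 on heavy polysomes. DDC libraries were the higher pair on monosomes and the lower pair in cytoplasm and on heavy polysomes. Its change was 1.04 on monosomes and -1.41 on heavy polysomes (limma adjusted p = 0.0355 and 0.0116). The monosome call was lost without DDC monosome replicate 1 (0.70), chow monosome replicate 1 (0.84) or chow monosome replicate 2 (1.24), the heavy polysome call without DDC heavy polysome replicate 2 (-1.002) or chow heavy polysome replicate 2 (-1.40), and both without chow preparation 1 (0.84 and -1.42). Cyp2d40 fell on monosomes (-2.09) and heavy polysomes (-2.85), also without chow preparation 1 (-2.75 and -3.27). These calls of Cyp2d40 were lost on monosomes without DDC monosome replicate 1 (-1.29) or chow monosome replicate 2 (-1.42) and on heavy polysomes without DDC heavy polysome replicate 1 (-2.34) or chow heavy polysome replicate 2 (-2.43). Cyp2d22 was called lower on heavy polysomes (-0.88, limma adjusted p = 0.048), which was lost without DDC heavy polysome replicate 2 (-0.58), chow heavy polysome replicate 1 (-0.89) or chow heavy polysome replicate 2 (-0.87) and without chow preparation 1 (-0.89).

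Cyp2f2 (chromosome 7, 27119909 to 27133660), known for activating naphthalene in the lung and made in the liver around the portal vein, was at 149 and 104 FPKM in cytoplasm, 253 and 131 on monosomes, 188 and 139 on light polysomes and 346 and 150.0 on heavy polysomes in DDC. In chow, Cyp2f2 was at 479.7 and 878 FPKM in cytoplasm, 282 and 597 on monosomes, 472 and 825 on light polysomes and 902 and 1742 on heavy polysomes. The diets did not overlap in any pool, and chow replicate 1 was below chow replicate 2 in each. Cyp2f2 fell in cytoplasm, on light and on heavy polysomes (-2.37, -1.94 and -2.45; limma adjusted p = 0.00896, 0.0177 and 0.00602) and was not called on monosomes (-1.17, adjusted p = 0.11). With 1 library left out the calls were lost in cytoplasm without DDC cytoplasm replicate 2 (-2.12) or chow cytoplasm replicate 2 (-1.94), on light polysomes without DDC light polysome replicate 2 (-1.72) or chow light polysome replicate 2 (-1.54) and on heavy polysomes without DDC heavy polysome replicate 2 (-1.86) or chow heavy polysome replicate 2 (-1.98). All were kept without chow preparation 1. Cyp2f2 was the 1 portal-zone gene listed. Of the 8 central-zone genes listed (Cyp1a2, Cyp2a5, Cyp2c29, Cyp2c37, Cyp2c50, Cyp2c54, Cyp2e1 and Cyp3a11), 3 fell in every pool (Cyp2c50, Cyp2c54 and Cyp2e1, of which Cyp2c50 lost every call without chow preparation 1) and 0 rose, beside the all-gene shares of 3.79% lower and 6.81% higher in every pool. The summed level of the 8 was 2689 to 6999.6 FPKM in the DDC libraries and 5593 to 12393 FPKM in the chow libraries. The sums overlapped in cytoplasm (6999.6 and 3668 FPKM in DDC, 5867 and 9606 FPKM in chow). They also overlapped on monosomes (6032 and 3144 FPKM in DDC, 5593 and 7990 FPKM in chow). On light and heavy polysomes the chow libraries were the higher pair. Cyp2e1 alone gave 185 and 122 FPKM of the sum in DDC cytoplasm and 2735 and 3850.0 FPKM in chow cytoplasm. Cyp2g1, the olfactory member of the family, was at 0.942 and 1.25 FPKM in cytoplasm, 1.48 and 5.97 on monosomes, 3.40 and 2.69 on light polysomes and 1.63 and 0.599 on heavy polysomes in DDC. In chow, Cyp2g1 was at 6.35 and 2.99 FPKM in cytoplasm, 13.7 and 7.13 on monosomes, 15.6 and 4.79 on light polysomes and 13.3 and 1.21 on heavy polysomes. Chow libraries were the higher pair except on heavy polysomes, where the diets overlapped. It was called in no pool.

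Cyp2j enzymes are arachidonic acid epoxygenases. Cyp2j5 (chromosome 4, 96628773 to 96664154), the liver and kidney form, was at 152 and 119 FPKM in cytoplasm, 36.3 and 56.2 on monosomes, 24.4 and 48.0 on light polysomes and 32.1 and 61.5 on heavy polysomes in DDC. In chow, Cyp2j5 was at 288 and 287 FPKM in cytoplasm, 124 and 129.8 on monosomes, 186 and 185 on light polysomes and 120.3 and 151 on heavy polysomes. The lower chow library was above the higher DDC library in each pool. Cyp2j5 changed by -1.08, -1.47, -2.40 and -1.58 in cytoplasm, monosomes, light and heavy polysomes (limma adjusted p = 0.0464, 0.00728, 0.000485 and 0.00683). Without chow preparation 1 the light polysome call was kept (-2.40), and those in cytoplasm, on monosomes and on heavy polysomes were lost (-1.08, -1.50 and -1.74). With 1 library left out the call was lost in cytoplasm without DDC cytoplasm replicate 1 (-1.26), DDC cytoplasm replicate 2 (-0.91), chow cytoplasm replicate 1 (-1.08) or chow cytoplasm replicate 2 (-1.09), on monosomes without DDC monosome replicate 1 (-1.16) and on heavy polysomes without DDC heavy polysome replicate 1 (-1.12) or chow heavy polysome replicate 2 (-1.42).

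Cyp2j9 was at 0.687 and 0.358 FPKM in cytoplasm, 0.495 and 0.523 on monosomes, 0.236 and 0.0736 on light polysomes and 0 and 0.249 on heavy polysomes in DDC. In chow, Cyp2j9 was at 1.89 and 3.53 FPKM in cytoplasm, 2.15 and 2.12 on monosomes, 0.701 and 1.23 on light polysomes and 0.290 and 0.193 on heavy polysomes. It was below 4 FPKM throughout and met the filter only through chow, and the diets did not overlap in cytoplasm, on monosomes or on light polysomes. It fell in those 3 pools (-1.26, -1.05 and -0.76; limma adjusted p = 0.00368, 0.00559 and 0.0341). The light polysome call of Cyp2j9 was lost without DDC light polysome replicate 1 (-0.86), DDC light polysome replicate 2 (-0.66) or chow light polysome replicate 2 (-0.56). Cyp2j6 was called in no pool.

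Cyp3a enzymes oxidise a wide range of drugs and steroids. Cyp3a11 (chromosome 5, 145854426 to 145879964), the main hepatic form and a target of Nr1i2, was at 2838 and 1904 FPKM in cytoplasm, 1577 and 1076 on monosomes, 1047 and 1118 on light polysomes and 1313 and 1112 on heavy polysomes in DDC. In chow, Cyp3a11 was at 1292 and 3071 FPKM in cytoplasm, 644 and 1384 on monosomes, 1134 and 1932 on light polysomes and 720.1 and 1699 on heavy polysomes. Chow replicate 1 was below and chow replicate 2 above both DDC libraries in cytoplasm and on heavy polysomes, and Cyp3a11 was called in no pool. Cyp3a13 (chromosome 5, 137892932 to 137921619) was at 5.25 and 3.88 FPKM in cytoplasm, 6.89 and 4.36 on monosomes, 4.76 and 3.78 on light polysomes and 4.94 and 3.91 on heavy polysomes in DDC. In chow, Cyp3a13 was at 12.5 and 13.6 FPKM in cytoplasm, 9.40 and 10.4 on monosomes, 11.004 and 8.47 on light polysomes and 12.2 and 9.76 on heavy polysomes. DDC libraries were the lower pair in each pool. Its changes of -1.35, -0.74, -1.02 and -1.14 were called in each pool (limma adjusted p = 0.00311, 0.0375, 0.00981 and 0.00628) and lost in each without chow preparation 1 (-1.40, -0.81, -0.85 and -0.995). With 1 library left out the monosome call was lost without DDC monosome replicate 2 (-0.46), chow monosome replicate 1 (-0.81) or chow monosome replicate 2 (-0.68) and the light polysome call without DDC light polysome replicate 2 (-0.89) or chow light polysome replicate 1 (-0.85).

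Cyp3a25 fell in cytoplasm, on light and on heavy polysomes (-1.84, -1.74 and -1.53), and Cyp3a59, 97.0% identical to it, in cytoplasm (-1.44). These calls too were lost without chow preparation 1 (Cyp3a25 -2.09, -1.83 and -1.71; Cyp3a59 -1.67). The heavy polysome call of Cyp3a25 was lost without DDC heavy polysome replicate 2 (-1.09) or chow heavy polysome replicate 2 (-1.35), and the call of Cyp3a59 without DDC cytoplasm replicate 1 (-1.44), DDC cytoplasm replicate 2 (-1.44) or chow cytoplasm replicate 2 (-1.21). Counting only transcripts annotated as protein-coding, Cyp3a25 changed by 0.33 on light polysomes. On heavy polysomes the other transcripts took 83.6% and 56.5% of its FPKM in DDC and 76.3% and 89.1% in chow. The heavy polysome change of -1.53 is thus that of all its transcripts together.

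Among the Cyp4f enzymes, which inactivate leukotrienes, Cyp4f16 rose in all 4 pools and Cyp4f13 and Cyp4f14 fell in some. Cyp4f14 (chromosome 17, 32905070 to 32917342), the most abundant, was at 82.8 and 48.5 FPKM in cytoplasm, 80.2 and 79.3 on monosomes, 50.4 and 78.6 on light polysomes and 113 and 109 on heavy polysomes in DDC. In chow, Cyp4f14 was at 154 and 123 FPKM in cytoplasm, 105 and 116 on monosomes, 152 and 146 on light polysomes and 387 and 325 on heavy polysomes. Each pool had both DDC libraries below both chow libraries. Cyp4f14 fell in cytoplasm, on light and on heavy polysomes (-1.10, -1.23 and -1.67; limma adjusted p = 0.0144, 0.00592 and 0.00116). The first was lost without DDC cytoplasm replicate 2 (-0.73) or chow cytoplasm replicate 1 (-0.94), the second without DDC light polysome replicate 1 (-0.92), and both without chow preparation 1 (-0.94 and -1.20). Cyp4f13 fell in cytoplasm (-0.999) and on heavy polysomes (-1.65), and both calls were lost without chow preparation 1 (-1.03 and -1.52). The cytoplasmic call of Cyp4f13 was also lost without DDC cytoplasm replicate 1 (-1.25), DDC cytoplasm replicate 2 (-0.74), chow cytoplasm replicate 1 (-1.03) or chow cytoplasm replicate 2 (-0.97). Cyp4f15 and Cyp4f17 were called in no pool. Cyp4f17 was at 1.56 and 1.34 FPKM in cytoplasm, 1.30 and 0.470 on monosomes, 0.874 and 0.882 on light polysomes and 3.003 and 1.17 on heavy polysomes in DDC. In chow, Cyp4f17 was at 2.59 and 2.55 FPKM in cytoplasm, 0.686 and 0 on monosomes, 0.159 and 0.617 on light polysomes and 2.56 and 0.716 on heavy polysomes. DDC libraries of Cyp4f17 were lower in cytoplasm and higher on light polysomes, and the diets overlapped on monosomes and heavy polysomes.

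Cyp4b1, a lung-type member, was at 0.246 and 0.451 FPKM in cytoplasm, 1.04 and 0.384 on monosomes, 1.24 and 0.525 on light polysomes and 2.38 and 0.994 on heavy polysomes in DDC. In chow, Cyp4b1 was at 1.39 and 1.53 FPKM in cytoplasm, 1.06 and 1.14 on monosomes, 1.87 and 1.65 on light polysomes and 3.74 and 4.90 on heavy polysomes. DDC libraries were the lower pair in each pool. It fell on heavy polysomes (-1.03, limma adjusted p = 0.0226), a call lost without DDC heavy polysome replicate 2 (-0.65) or chow heavy polysome replicate 2 (-0.87) and without chow preparation 1 (-1.18). Cyp4v3, a fatty acid hydroxylase, was at 53.9 and 44.1 FPKM in cytoplasm, 32.1 and 32.2 on monosomes, 21.2 and 33.3 on light polysomes and 32.3 and 30.2 on heavy polysomes in DDC. In chow, Cyp4v3 was at 77.1 and 222 FPKM in cytoplasm, 57.3 and 136 on monosomes, 66.6 and 175 on light polysomes and 53.2 and 141 on heavy polysomes. Chow replicate 1 was below chow replicate 2 in each pool, and all 8 chow libraries were above the DDC libraries of their pool. The fall was called on light polysomes (-1.98, limma adjusted p = 0.0278), where it was lost without DDC light polysome replicate 1 (-1.67), DDC light polysome replicate 2 (-2.29) or chow light polysome replicate 2 (-1.29). Without chow preparation 1 Cyp4v3 was called lower in each of the 4 pools (-2.16, -2.05, -2.67 and -2.14).

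Members with narrower substrates were scarce. Cyp2r1, the hepatic vitamin D hydroxylase, was at 6.53 and 4.26 FPKM in cytoplasm, 5.12 and 6.81 on monosomes, 5.17 and 7.64 on light polysomes and 5.61 and 3.51 on heavy polysomes in DDC. In chow, Cyp2r1 was at 7.91 and 8.61 FPKM in cytoplasm, 6.30 and 8.03 on monosomes, 15.6 and 19.2 on light polysomes and 7.20 and 11.7 on heavy polysomes. Its DDC libraries were the lower pair except on monosomes, where the diets overlapped. It fell on light polysomes (-1.33, limma adjusted p = 0.00665), lost without DDC light polysome replicate 1 (-1.08) or chow light polysome replicate 2 (-1.18), and on heavy polysomes (-0.90, adjusted p = 0.0496), lost without DDC heavy polysome replicate 2 (-0.62) or chow heavy polysome replicate 2 (-0.59) and without chow preparation 1 (-1.21). With protein-coding transcripts only the heavy polysome change of Cyp2r1 was 0.10. Cyp2u1, a hydroxylase of long-chain fatty acids, was at 1.79 and 1.49 FPKM in cytoplasm, 2.25 and 2.92 on monosomes, 1.397 and 2.55 on light polysomes and 1.11 and 1.13 on heavy polysomes in DDC. In chow, Cyp2u1 was at 2.27 and 13.4 FPKM in cytoplasm, 3.33 and 29.6 on monosomes, 2.68 and 13.8 on light polysomes and 3.14 and 16.7 on heavy polysomes. Each DDC library was below the chow libraries of its pool, and chow replicate 2 was the highest library in each. It was called in no pool with all libraries.

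Cyp17a1, the hydroxylase and lyase of androgen synthesis, was at 1.404 and 2.02 FPKM in cytoplasm, 5.17 and 3.58 on monosomes, 2.70 and 3.11 on light polysomes and 4.31 and 3.06 on heavy polysomes in DDC. In chow, Cyp17a1 was at 4.13 and 0.546 FPKM in cytoplasm, 2.83 and 0.542 on monosomes, 4.30 and 0.380 on light polysomes and 8.11 and 0 on heavy polysomes. Chow replicate 1 of Cyp17a1 was above chow replicate 2 in each pool, and DDC lay above both on monosomes only. Cyp26a1, which breaks down retinoic acid, was at 7.45 and 2.85 FPKM in cytoplasm, 11.1 and 2.93 on monosomes, 4.36 and 1.66 on light polysomes and 7.94 and 3.74 on heavy polysomes in DDC. In chow, Cyp26a1 was at 8.08 and 7.23 FPKM in cytoplasm, 3.47 and 1.73 on monosomes, 7.92 and 5.11 on light polysomes and 5.68 and 5.51 on heavy polysomes. DDC replicate 1 of Cyp26a1 was above DDC replicate 2 in each pool, and the diets overlapped except on light polysomes. Neither was called in any pool with all libraries. Cyp39a1, an oxysterol hydroxylase of bile acid synthesis, was at 6.45 and 7.10 FPKM in cytoplasm, 6.77 and 5.21 on monosomes, 5.52 and 3.67 on light polysomes and 2.83 and 3.46 on heavy polysomes in DDC. In chow, Cyp39a1 was at 9.27 and 3.21 FPKM in cytoplasm, 3.27 and 1.77 on monosomes, 5.23 and 1.64 on light polysomes and 2.10 and 1.62 on heavy polysomes. On monosomes and heavy polysomes the DDC libraries were the higher pair. It too was called in no pool with all libraries.

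Por (chromosome 5, 135670033 to 135735326), on which every member above depends, was at 192 and 102 FPKM in cytoplasm, 433 and 224 on monosomes, 257 and 197 on light polysomes and 569 and 242 on heavy polysomes in DDC. In chow, Por was at 107 and 159.8 FPKM in cytoplasm, 198 and 199 on monosomes, 239 and 230.3 on light polysomes and 775 and 499 on heavy polysomes. DDC replicate 1 was above DDC replicate 2 in each pool, and the diets overlapped in cytoplasm, on light and on heavy polysomes. Its changes of 0.10, 0.65, -0.06 and -0.74 did not pass the test (limma adjusted p = 0.913, 0.278, 0.935 and 0.261). The 26 members that did not reach the filter included Cyp1b1, Cyp2s1 and Cyp2w1, each at or below 0.112 FPKM in every library, and Cyp4f18, which reached 3.99 FPKM in 1 library.

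The chow libraries split at many members known to differ between the sexes of the mouse. Chow preparation 1 exceeded preparation 2 by more than 2 on the log2 scale in all 4 pools for 9 members (Cyp2a4, Cyp2a22, Cyp2c37, Cyp2c38, Cyp2c39, Cyp2c40, Cyp2c69, Cyp3a16 and Cyp3a44), and was lower by more than 2 for 3 members (Cyp2d9, Cyp2c67 and Cyp2u1). This is a difference between 2 preparations, with no replicate of either and no test. The share of all genes split this far was not computed, so these counts cannot be set against the whole series. Cyp2c69 was at 0.118 and 0.0266 FPKM in cytoplasm, 0 and 0.0744 on monosomes, 0 and 0.0493 on light polysomes and 0.0352 and 0.215 on heavy polysomes in DDC. In chow, Cyp2c69 was at 174 and 0.172 FPKM in cytoplasm, 133 and 0.0587 on monosomes, 192 and 0.0977 on light polysomes and 218 and 0.498 on heavy polysomes. Only the 4 libraries of chow preparation 1 were above 1 FPKM. Cyp2c40, 97.8% identical to Cyp2c69 in transcript sequence, was at 0.997 and 0.494 FPKM in cytoplasm, 0.514 and 0.237 on monosomes, 0.406 and 0.567 on light polysomes and 0.241 and 0.344 on heavy polysomes in DDC. In chow, Cyp2c40 was at 144 and 0.382 FPKM in cytoplasm, 173 and 0.115 on monosomes, 184 and 0.490 on light polysomes and 206 and 0.645 on heavy polysomes. Cyp3a44, a female-predominant Cyp3a gene, was at 0.232 and 0.252 FPKM in cytoplasm, 0 and 0.381 on monosomes, 0.0336 and 0.329 on light polysomes and 0.219 and 0.173 on heavy polysomes in DDC. In chow, Cyp3a44 was at 142 and 0.125 FPKM in cytoplasm, 79.1 and 0 on monosomes, 168 and 0.139 on light polysomes and 202 and 0.0402 on heavy polysomes. All 3 genes therefore passed the filter through that 1 preparation, and their mean changes of -3.74, -3.03 and -3.35 in cytoplasm were not called (limma adjusted p = 0.408, 0.499 and 0.452).

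Cyp2d9, a steroid hydroxylase of male mouse liver, ran the other way. In DDC, Cyp2d9 was at 215 and 177 FPKM in cytoplasm, 761 and 569.6 on monosomes, 568 and 448 on light polysomes and 907 and 677 on heavy polysomes. In chow, Cyp2d9 was at 4.41 and 706 FPKM in cytoplasm, 2.96 and 554 on monosomes, 5.89 and 1038 on light polysomes and 16.1 and 3383 on heavy polysomes. The DDC libraries lay between the 2 chow preparations in cytoplasm, light and heavy polysomes and above both on monosomes. With all libraries Cyp2d9 was called in no pool, and without chow preparation 1 it was lower in cytoplasm (-1.85) and on heavy polysomes (-2.11). Of 9 listed female-biased P450 genes the summed level was 148 to 855 FPKM in the DDC libraries, 656 to 1809 FPKM in chow preparation 1 and 14.9 to 66.4 FPKM in chow preparation 2. In DDC this sum was mostly Cyp2b10 and Cyp2a4: Cyp2c40, Cyp2c69, Cyp3a16, Cyp3a41a, Cyp3a41b and Cyp3a44 were below 1 FPKM in every library of DDC and of chow preparation 2. For the listed male-biased pair Cyp2d9 and Cyp2u1 it was 179 to 908 FPKM in DDC, 6.29 to 19.2 FPKM in chow preparation 1 and 584 to 3400 FPKM in chow preparation 2.

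Set against chow preparation 2 alone, with the spread estimated from the other groups and the lone chow libraries assumed to vary like them, 9 members were called that had no call with all libraries. Cyp2a4 was 6.48, 5.63, 5.12 and 5.10 higher in cytoplasm, monosomes, light and heavy polysomes of DDC. In DDC, Cyp2a4 was at 297 and 59.6 FPKM in cytoplasm, 73.5 and 44.8 on monosomes, 34.0 and 62.4 on light polysomes and 74.2 and 95.5 on heavy polysomes, and in chow at 211 and 0.511 FPKM in cytoplasm, 227 and 0.180 on monosomes, 413 and 0.359 on light polysomes and 1055 and 1.48 on heavy polysomes. The DDC libraries lay between the 2 chow preparations except for DDC replicate 1 in cytoplasm, which was above both. Cyp2a22 was higher in the same 4 pools (3.52, 3.70, 2.85 and 2.99), Cyp2c39 and Cyp17a1 on monosomes, light and heavy polysomes (3.45, 2.66 and 2.998 for Cyp2c39, and 1.79 and 1.49999 for Cyp17a1 on monosomes and light polysomes, its remaining chow library being listed at 0 on heavy polysomes), Cyp39a1 on monosomes (1.33) and Cyp4a31 on heavy polysomes. Cyp2u1 was lower in all 4 pools (-2.45, -3.10, -2.34 and -3.06), Cyp2c67 on monosomes, light and heavy polysomes (-3.27, -3.82 and -3.71) and Cyp2d9 as given above. In the other direction, 12 members lost every diet call without chow preparation 1. Preparation and sex-linked genes cannot be told apart within chow, and the part of either in the diet results was not tested.

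**Figure D3:**
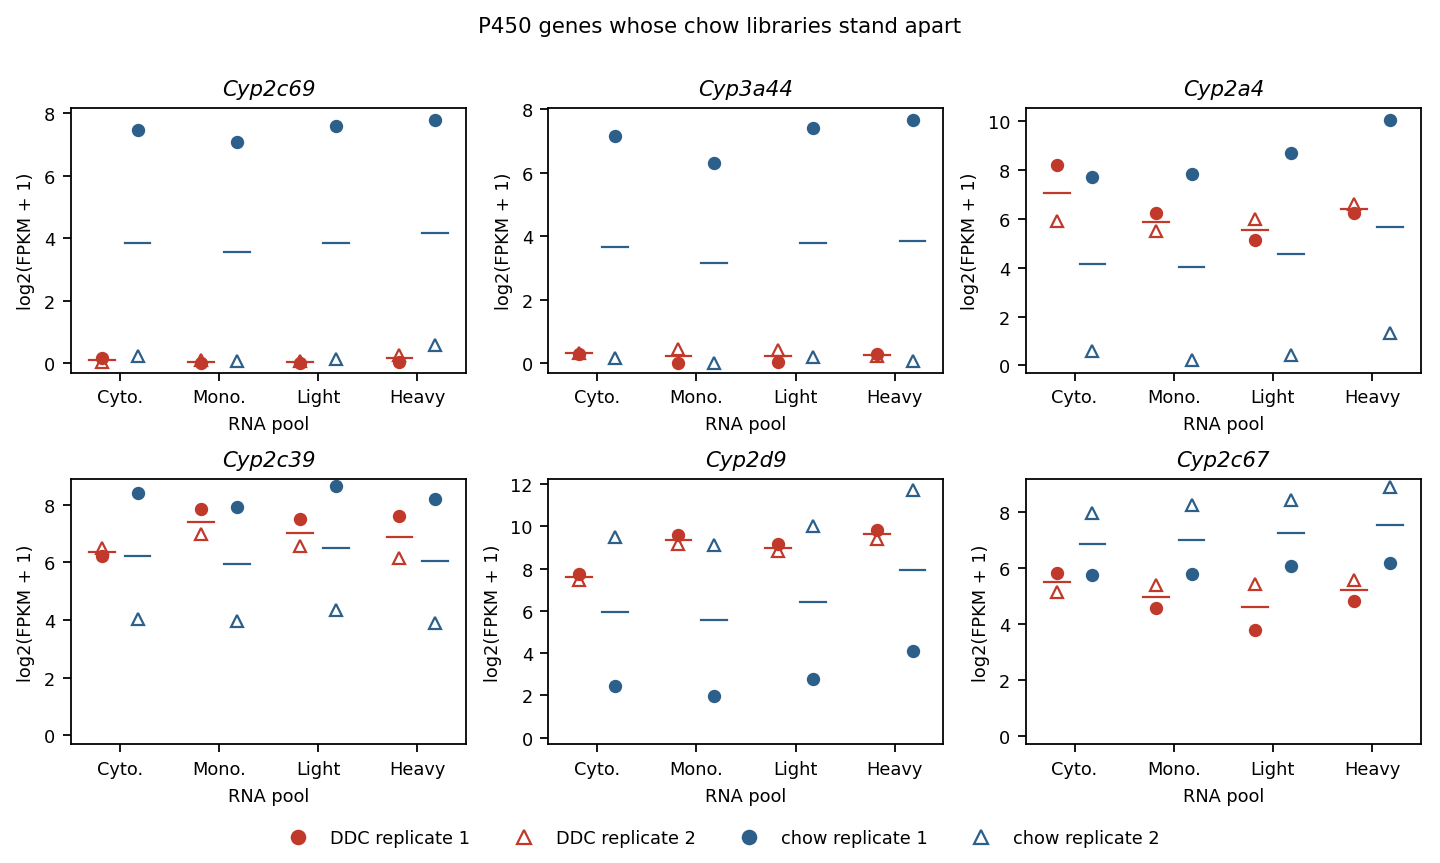
Level of 6 members whose chow libraries stand apart, log2(FPKM + 1), by RNA pool, DDC libraries in red left of chow libraries in blue, replicate 1 as a filled circle, replicate 2 as an open triangle, lines at group means. For Cyp2c69, Cyp3a44, Cyp2a4 and Cyp2c39 chow replicate 1 is the higher chow library and for Cyp2d9 and Cyp2c67 the lower one, and the DDC libraries of Cyp2a4, Cyp2c39 and Cyp2d9 lie mostly between the 2 chow libraries.

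The next question was which P450 messages lay on heavy polysomes rather than on monosomes in each diet. In DDC 0 of 55 members differed between the fractions (0 at an unadjusted p under 0.05 as well), where 18.2% of all genes were higher on heavy polysomes and 14.5% lower (32.7% in either direction) and the member median was 0.06. In chow 16 members were higher on heavy polysomes and 1 was lower, where 23.7% and 21.1% of all genes were (44.8% in either direction), and the median was 0.74 for members and 0 for all genes. By subfamily, 4 of 6 tested Cyp2d members (median 1.96) and 4 of 5 Cyp4f members (median 1.83) were called higher, as were 2 of 13 Cyp2c and 0 of 8 Cyp3a members. With libraries scaled to equal summed FPKM, the median of all genes was -0.37 in both diets, that of the members was -0.37 in DDC and 0.03 in chow, and the members called higher and lower were 0 and 4 in DDC and 8 and 1 in chow. The member median in chow was thus above the median of all genes under both scalings, and the number of members called was not the same. The shares of all genes called with equal summed FPKM were not computed.

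Since the labels give both fractions of a diet the same preparation names, the comparison was also made within preparations. With the preparation as a block, 2 members were higher on heavy polysomes and 1 lower in DDC (38.2% of all genes called), namely Cyp1a2 (0.63), Cyp2c68 (0.59) and, lower, Cyp2u1 (-0.75). In chow 26 were higher and 1 lower (49.1% of all genes called). Leaving out chow preparation 1, the counts were 1 (Cyp4a31) and 0 in DDC and 7 and 1 in chow, with 28.1% and 25.9% of all genes called. Leaving out DDC heavy polysome replicate 2 gave 1 higher member in DDC, and leaving out chow heavy polysome replicate 1 gave 2 lower members in chow.

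Cyp2d10 had the highest of the members' chow values in this comparison. In DDC, Cyp2d10 was at 897 and 508 FPKM on heavy polysomes and 693 and 430.3 FPKM on monosomes, and the fractions overlapped. In chow it was at 1782 and 1813 FPKM on heavy polysomes and 230.5 and 305 FPKM on monosomes, with no overlap. The log2 change was 0.30 in DDC (limma adjusted p = 0.543) and 2.76 in chow (SE 0.35; limma adjusted p = 8.35e-05). Cyp2d26 followed in chow with 2.46 (adjusted p = 0.00046), and Cyp2d9 had 2.36 without passing the test (adjusted p = 0.565), although both chow preparations were higher on heavy polysomes. Cyp2d22 (1.57) and Cyp2d12 (1.31) were the other Cyp2d calls. Of the Cyp4f members, Cyp4f13 (2.28), Cyp4f14 (1.68), Cyp4f15 (1.83) and Cyp4f16 (2.08) were called. The remaining chow calls were Cyp2a12 (1.99), Cyp2b10 (1.99), Cyp1a2 (1.86), Por (1.64), Cyp2f2 (1.61), Cyp2c70 (1.52), Cyp2c68 (1.45) and Cyp4b1 (1.33).

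Cyp2j9 was the 1 member lower on heavy polysomes in chow (-1.34, limma adjusted p = 0.000911), with 0.290 and 0.193 FPKM on heavy polysomes and 2.15 and 2.12 FPKM on monosomes. Cyp2g1 (-1.02 in DDC and -0.96 in chow) and Cyp2u1 (-0.75 in DDC and -0.43 in chow) had the next lowest values in chow and, with Cyp39a1 (-0.75), the lowest in DDC, and were not called in the unblocked comparison. The largest positive value in DDC was that of the scarce Cyp4a31 (0.72), with Cyp4f17 (0.68) and Cyp1a2 (0.63) after it. Which chow calls are kept with libraries left out was computed for the members only, not for all genes. Of the 17 chow calls, 11 were kept whichever library of the compared groups was left out and 5 of these also without chow preparation 1 (Cyp2a12, Cyp2d10, Cyp2j9, Cyp4f13 and Cyp4f16). The other 6 were lost for Cyp1a2 without chow heavy polysome replicate 2 (1.19) or chow monosome replicate 1 (1.20), for Cyp2b10 without chow heavy polysome replicate 1 (1.83) or chow monosome replicate 2 (1.71), for Cyp2c68 without chow heavy polysome replicate 1 (0.88) or chow monosome replicate 2 (0.98), for Cyp2d12 without chow heavy polysome replicate 2 (0.73) or chow monosome replicate 1 (0.89), for Cyp2f2 without chow heavy polysome replicate 2 (1.13) or chow monosome replicate 1 (1.07) and for Por without chow heavy polysome replicate 1 (1.32). Without chow preparation 1 the calls of Cyp2b10 (2.11), Cyp2c70 (1.55), Cyp2d12 (1.46), Cyp2d22 (1.27), Cyp2d26 (2.30), Cyp2f2 (1.54), Cyp4b1 (1.46), Cyp4f14 (1.48), Cyp4f15 (1.75) and Por (1.32) were lost, and Cyp2d9 was called (2.61).

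**Figure D4:**
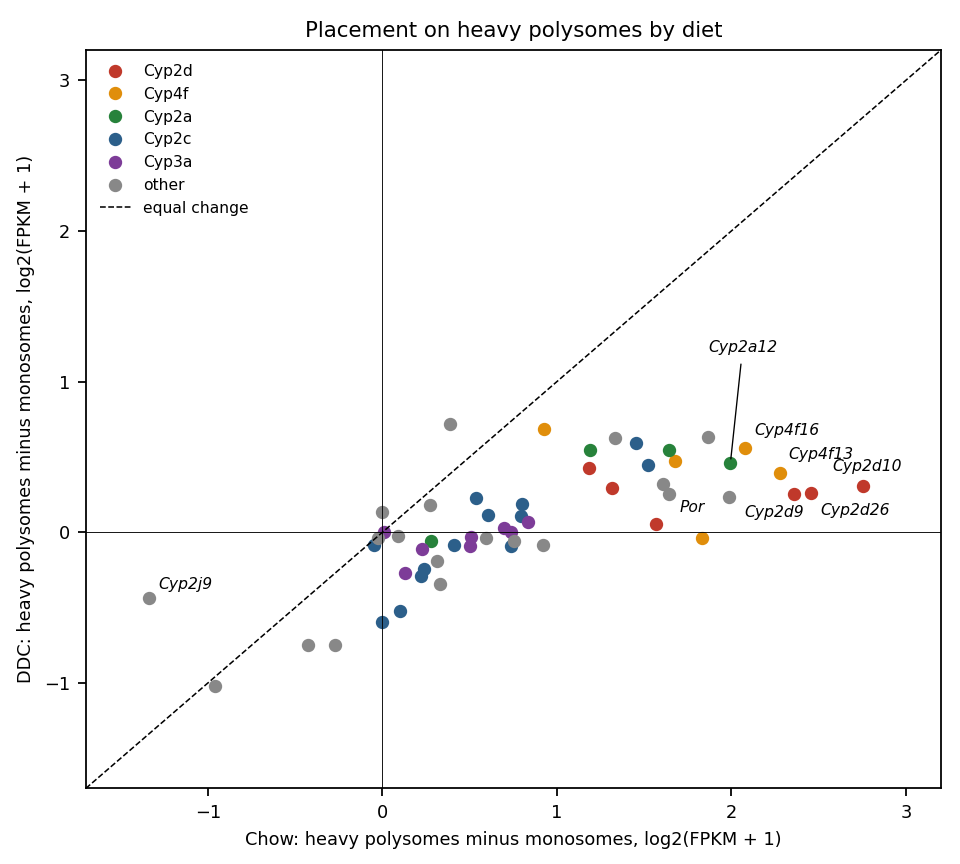
Change from monosomes to heavy polysomes, log2(FPKM + 1), of the 55 members, DDC on the vertical axis and chow on the horizontal axis, coloured by subfamily, with a dashed line where both diets would be equal. Cyp2d and Cyp4f members lie at -0.04 to 0.68 in DDC and 0.93 to 2.76 in chow, below the dashed line.

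Whether the diet changed that placement was asked of the difference itself. For heavy polysomes against monosomes the DDC minus chow difference was called for 2 members, both lower (Cyp2d10 and Cyp2a12), where 0.996% of all genes were higher and 0.902% lower (1.9% in either direction), and the median was -0.64 for members and -0.03 for all genes. The difference was -2.45 (SE 0.50; limma adjusted p = 0.0304) for Cyp2d10 and -1.54 (SE 0.33; adjusted p = 0.0424) for Cyp2a12. For Cyp2a12 this rested on 859 and 715 FPKM on heavy polysomes and 675 and 482 FPKM on monosomes in DDC, and on 738 and 695 FPKM on heavy polysomes and 194 and 165 FPKM on monosomes in chow. The heavy polysome values were close in the diets, and the monosome values were higher in DDC. The Cyp2d10 call was lost without DDC heavy polysome replicate 2 (-2.04), DDC monosome replicate 1 (-2.11), chow heavy polysome replicate 1 (-2.46), chow heavy polysome replicate 2 (-2.44), chow monosome replicate 1 (-2.25) or chow monosome replicate 2 (-2.65), and the Cyp2a12 call without DDC heavy polysome replicate 2 (-1.40), DDC monosome replicate 1 (-1.29), chow heavy polysome replicate 1 (-1.49), chow heavy polysome replicate 2 (-1.58) or chow monosome replicate 2 (-1.42). Both were lost without chow preparation 1 (-2.26 and -1.61, with 0 members and 0.979% of all genes called). Leaving out DDC heavy polysome replicate 1 instead gave 5 called members. Leaving out either cytoplasmic library of either diet gave 1.

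With the preparation as a block the difference was called for 9 members, all lower, where 5.3% of all genes were called: Cyp2d10 (-2.45), Cyp2d26 (-2.20), Cyp2d9 (-2.11), Cyp4f13 (-1.88), Cyp4f15 (-1.87), Cyp2a12 (-1.54), Cyp2d22 (-1.51), Cyp2f2 (-1.29) and Cyp1a2 (-1.23). For heavy polysomes against cytoplasm 0 members were called by limma, where 0.0596% of all genes were higher and 0.0426% lower (0.102% in either direction), with 4 members at an unadjusted p under 0.05 and a member median of -0.11.

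Of a list of 35 regulators, electron partners and other drug oxidation genes, 33 were tested, and 4 rose and 9 fell with DDC in cytoplasm, 3 and 12 on monosomes, 3 and 9 on light and 3 and 6 on heavy polysomes, against the all-gene shares given above. Hmox1, which breaks down heme, was at 51.1 and 102 FPKM in cytoplasm, 45.7 and 83.0 on monosomes, 60.5 and 124 on light polysomes and 162 and 259 on heavy polysomes in DDC. In chow, Hmox1 was at 10.5 and 6.02 FPKM in cytoplasm, 8.39 and 4.21 on monosomes, 10.2 and 6.19 on light polysomes and 18.3 and 8.78 on heavy polysomes. All DDC libraries were above all chow libraries of their pool. It rose in all 4 pools (3.03 in cytoplasm, limma adjusted p = 0.00186), as did the quinone reductase gene Nqo1 (1.98, adjusted p = 0.00357). Ephx1, the microsomal epoxide hydrolase, rose in cytoplasm (1.28), on monosomes and on light polysomes, and Nfe2l2, the regulator of the antioxidant response, in cytoplasm (1.49) and on heavy polysomes.

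Among the genes of that list that fell, Nr1i3, the receptor behind Cyp2b10 induction, was lower in cytoplasm (-2.73, limma adjusted p = 0.0225), with 11.9 and 8.42 FPKM in cytoplasm of DDC and 69.7 and 74.6 FPKM in cytoplasm of chow, and was not called in the fractions. Ghr, the growth hormone receptor, fell in all 4 pools (-3.20, -3.93, -4.33 and -4.38). The soluble epoxide hydrolase gene Ephx2 (-2.67 in cytoplasm), the liver factor gene Cebpa (-1.67), the fatty acid receptor gene Ppara (-1.67) and the bile acid receptor gene Nr1h4 (-1.20) also fell in all 4. Fech, the ferrochelatase gene, was -1.17, -1.21 and -1.09 in cytoplasm, monosomes and light polysomes, where it fell, and -0.75 on heavy polysomes, where it was not called. Ahr and Nr1i2 were called in no pool.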

How the data were processed

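Polyadenylated RNA of hepatocytes was measured in 16 libraries (8 groups of diet and RNA pool, 2 libraries each), grouped by the sample titles. Values are FPKM per transcript as the authors deposited them. The submitters' processing notes list Cuffnorm, by which FPKM are scaled between libraries, after demultiplexing (bcl2fastq 2.17.1.14), trimming (Trimmomatic), alignment to GRCm38 (STAR 2.4.2a) and Picard 1.119. The options of Cuffnorm are not given in the sources used here. Sequencing depth is unknown, so no counting intervals are given. The library kit was stranded, per the labels.

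GENCODE M21 named 116728 of 117592 transcripts (99.27%), whose FPKM were added up per gene (48158 genes). The 864 others, at most 0.51% of the FPKM of any library, were not used. The filter was 1 FPKM in 2 libraries (11790 genes). Where a gene stood at 0 in both libraries of a group but reached 100 FPKM in another, that group's values were taken as missing (49 genes, 0 members). On log2(FPKM + 1), limma 3.58.1 in R 4.3.3 fitted 8 group means to all libraries with a variance trend (8 residual and 3.91 prior degrees of freedom), with the Benjamini-Hochberg adjustment over all genes tested in each of 8 comparisons. The script was tested on simulated data. Family numbers were read as whole numbers, so that genes such as Cyp21a1, Cyp27a1 and Cyp46a1 are not members.

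Labels give chow fractions the preparation names CH1_CH2 and CH3_CH4 (cytoplasm CH1 and CH3) and DDC fractions B and C (cytoplasm C2 and D2). The difference between replicates correlated across genes by 0.357 to 0.749 between chow pools, 0.305 to 0.365 between DDC fractions, -0.05 to 0.161 between DDC cytoplasm and DDC fractions and -0.094 to 0.07 between diets. The names in the labels thus tie the chow pools to each other and the DDC fractions to each other, but not one diet to the other or DDC cytoplasm to its fractions. The main fit has no block and treats all 16 libraries as independent. Calls of a member in several pools are therefore not independent of each other.

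Members and lists were chosen with earlier results of these data known. Values in every library are given for Por, the most abundant member of each subfamily, members called higher in a pool or lower in all 4, the 5 largest changes in cytoplasm and on heavy polysomes, members called in a diet difference of placement and the 3 largest placements each way per diet. Cyp2a4, the further genes in the plots, the motifs and the promoters shown were chosen after the values were seen. Transcript identity was computed with Biopython 1.88 between tested members of the same subfamily only. For 17 tested members the closest paralog among these was at least 95% identical, so how reads were divided between the pair is uncertain. Genes left out of the members, such as Cyp2b9 and Cyp2b13, and those below the filter were not compared, so further members may share reads.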

Additional observations from a re-analysis of the deposited data

Results flagged for a closer look

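The change from monosomes to heavy polysomes differed between the diets, by a test of the difference itself with all libraries, for 2 of 55 members. Of all genes, 1.9% were called in either direction. For Cyp2d10 the change in DDC minus that in chow was -2.45 on the log2 scale (limma, Benjamini-Hochberg adjusted p = 0.0304), with 0.30 in DDC and 2.76 in chow. For Cyp2a12 it was -1.54 (adjusted p = 0.0424), with 0.46 in DDC and 1.99 in chow. Groups of 2 libraries are too small to tell which library of a group is outlying, but each compared library was left out in turn. Neither call was kept in all of these fits. The difference ran from -2.86 to -2.04 for Cyp2d10 and from -1.78 to -1.29 for Cyp2a12, so only its direction was kept. Both calls were also lost without the chow preparation that stood apart.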

How the results depend on the processing

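No single-gene call reversed except in 2 cases, both with protein-coding transcripts only: Cyp3a25 on light polysomes (0.33) and Cyp2r1 on heavy polysomes (0.10). Of the values of single genes under the alternatives, 1052 kept direction and side of the threshold and 259 kept direction but lost the call. Apart from counting fewer transcripts or libraries, the cause of these changes was not tested. Counts of members called stayed within 1.5 times under a pseudocount of 0.1, no variance trend, 0 kept as a value, at least a 2-fold change and the literal reading of the member rule. With libraries scaled to equal summed FPKM, 5 members were higher in cytoplasm, 11 lower on heavy polysomes, 4 lower on heavy polysomes than on monosomes in DDC and 8 higher in chow, and 1 differed between diets against cytoplasm. After quantile normalization 1 member was higher and 1 lower on heavy polysomes than on monosomes in DDC and 8 were higher in chow. The shares of all genes called under these 2 scalings were not computed. With no filter, which adds members that fail it, the lower counts between fractions were 1 in DDC (Cyp2s1, below the filter) and 2 in chow (with Cyp26b1, below the filter) and 1 member differed between diets, and with protein-coding transcripts only 3 were lower in chow. Fitting only the groups compared left 4 higher and 5 lower on monosomes, 1 higher and 2 lower on heavy polysomes and 0 diet differences.

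With a replicate block by number, which pairs the diets by number only, 4 members differed between diets in placement, and no other count moved by over 1.5 times. With a replicate block of preparation within diet, 7 were higher and 29 lower in cytoplasm, 19 and 21 on monosomes, 5 and 24 on light and 5 and 28 on heavy polysomes, 2 and 1 in DDC and 26 higher in chow between fractions, and 9 differed between diets. With this block, 28.3% of all genes were called in cytoplasm, 43% on monosomes, 36.7% on light and 30.3% on heavy polysomes. Between fractions 38.2% were called in DDC and 49.1% in chow, and 5.3% differed between diets. Preparations are nested in diets, so for the diet comparisons this block takes the spread between preparations out of the error, and it treats DDC cytoplasm as paired, which the labels do not state. Without chow preparation 1, 7 were lower in cytoplasm, 6 higher on light, 7 higher and 11 lower on heavy polysomes, 1 higher in DDC and 7 in chow between fractions, and 0 differed.

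Leaving out 1 library at a time gave 2 to 3 higher and 6 to 14 lower members in cytoplasm, 4 to 8 and 5 to 9 on monosomes, 2 to 3 and 8 to 15 on light and 2 to 4 and 8 to 18 on heavy polysomes. Between fractions it gave 0 to 1 higher and 0 lower in DDC and 13 to 17 and 1 to 2 in chow, and 0 to 5 and 0 for the diet differences against monosomes and cytoplasm. Where a leave-out reduces a group to 1 library, that library is assumed to vary like the other groups. Limits are 2 libraries a group, unknown depth, a pseudocount that compresses changes under about 1 FPKM, reads shared between paralogs, and 1 chow preparation that differs in sex-linked genes.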

Other observations

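For Cyp3a25 most of the FPKM on monosomes, light and heavy polysomes stood on a transcript annotated as a target of nonsense-mediated decay. Transcripts not annotated as protein-coding took 62.2% and 25.4% of Cyp3a25 in the DDC libraries of cytoplasm and 25.7% and 35.1% in those of chow. On light polysomes the share was 69.7% and 68.3% in DDC and 91.8% and 93.7% in chow. On heavy polysomes it was 83.6% and 56.5% in DDC and 76.3% and 89.1% in chow. The main protein-coding transcript, Cyp3a25-201, was at 17.6 and 15.6 FPKM in DDC and 14.1 and 11.98 FPKM in chow on light polysomes, with the lowest DDC value above the highest chow value. In cytoplasm it was at 34.5 and 53.6 FPKM in DDC and 183 and 226 FPKM in chow. How Cuffnorm divided reads between these transcripts was not tested. For Cyp2r1 the share of such transcripts was 56.4% and 29.0% in DDC and 65.2% and 83.0% in chow on heavy polysomes.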
